A study of Trichoderma guizhouense with 100 samples.

Results

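The wild type (WT) of Trichoderma guizhouense NJAU4742, a filamentous fungus isolated from compost, was compared between cellulose and xylan 72 h after the change of carbon source. The comparison holds 6 of the 100 libraries of the series, taken by their labels: 3 of WT mycelium on cellulose (Avicel, a microcrystalline cellulose) and 3 of WT mycelium on xylan (from sugarcane bagasse), with all 11244 genes of the table. Both groups are the same unmodified strain, grown first on glucose in shaken liquid minimal medium, washed, and moved to fresh medium with the polysaccharide as the only carbon source, so they share the strain, the earlier culture and the time. The RNA is polyA RNA of whole mycelium collected through gauze, and the methods state 3 biological replicates per condition. For reference, 6 libraries of WT at 24 h (3 on cellulose and 3 on xylan) and 2 of WT without a carbon source for 72 h (carbon starvation, CS) were used. Values are RPKM, read numbers scaled to transcript length and library depth, and the 3 libraries of a group are given in the order of replicates 1, 2 and 3.

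Cellulose is a chain of glucose units. Cellobiohydrolases release cellobiose from its ends, endoglucanases cut inside it, lytic polysaccharide monooxygenases cut it by oxidation, and β-glucosidases split cellobiose into glucose. Xylan is a chain of xylose units that carries acetyl groups, arabinose and glucuronic acid. Endoxylanases and β-xylosidases cut the chain, esterases, arabinofuranosidases and glucuronidases remove the side groups, and xylose is used inside the cell by way of xylitol and xylulose. In Trichoderma reesei, whose gene names the annotation often borrows, both sets of enzymes are made under the activator Xyr1.

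Cellulose replicate 2 stood apart from replicates 1 and 3. Over the 10026 genes tested, its log2(RPKM + 1) values had a Pearson r of 0.799 with replicate 1 and 0.768 with replicate 3, while replicates 1 and 3 had 0.961 with each other and the xylan libraries 0.987 to 0.989. Its closest libraries were those of WT under CS at 72 h, at 0.971 and 0.972, followed by WT on cellulose at 24 h, at 0.929 to 0.941. These r are descriptions across genes, which are not independent replicates. The cellulase genes summed to 9100.2, 199 and 3010 RPKM on cellulose, to 287, 288 and 258 RPKM on xylan and to 181 and 184 RPKM under CS. Replicate 2 lay between the CS and the xylan libraries there, and replicates 1 and 3 lay far above them. The median over genes of the SD of log2(RPKM + 1) was 0.630 on cellulose and 0.175 on xylan at 72 h, and 0.0581 to 0.224 in the other WT groups. The labels place replicate 2 in the cellulose group, so results are given with it and without it. An exchange of samples and a culture in another state cannot be told apart from these values, so those of all libraries describe the group as labelled. The RPKM of all genes summed to 1548100, 724110 and 2053100 on cellulose, to 2138200 to 2506000 on xylan and to 553840 and 605320 under CS, so the sum of replicate 2 was also nearest to CS. A scaling to equal sums was therefore tried as an alternative.

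**Figure D1:**
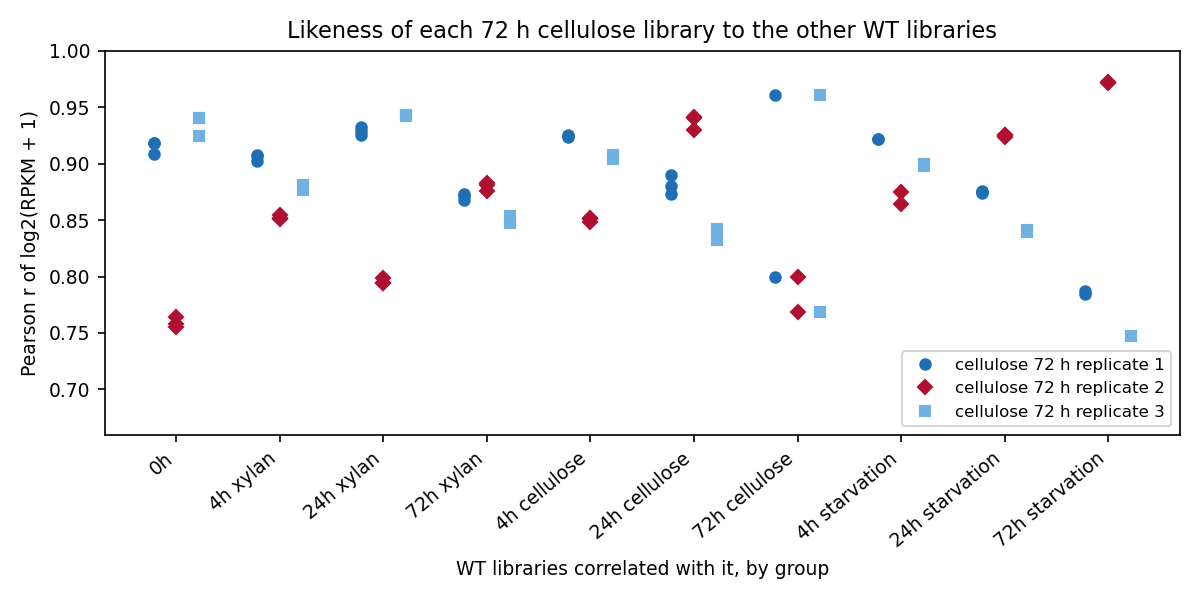
Pearson r of log2(RPKM + 1) over 10026 genes (y axis, starting above 0) between each cellulose library of 72 h and the other WT libraries, by group (x axis). Replicate 2 (red diamonds) sits at 0.971 and 0.972 with the CS libraries of 72 h but at 0.768 and 0.799 with its own group, whereas replicates 1 and 3 have 0.961 with each other.

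With all libraries 284 of 10026 genes were called higher on cellulose than on xylan (2.83%) and 483 were called lower (4.82%). Without cellulose replicate 2 the counts were 621 (6.19%) and 607 (6.05%). A gene was called when its p from limma, adjusted after Benjamini and Hochberg, did not exceed 0.01, its groups differed by 2 log2 units or more, and the group with the higher level averaged over 2 RPKM. Of the 284 higher genes 277 were also called without replicate 2, and of the 483 lower genes 390 were, so that the calls held in both fits were 44.6% of the higher and 64.3% of the lower calls made without it. In RNA of whole mycelium, fewer cells expressing a gene and less RNA per cell cannot be told apart.

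Replicate 2 often did not share the changes of the other cellulose libraries. The 621 and 607 genes called without it were chosen on replicates 1 and 3, at 2 log2 units or more. Their medians in those libraries were thus set by the choice, and smaller differences in replicate 2 were favoured. For the 621 genes called higher without replicate 2, the median difference from the xylan mean was 2.82 log2 units in replicates 1 and 3. In replicate 2 it was -0.04. In 374 of these genes replicate 2 was not above the highest xylan library, and in 138 it was more than 1 log2 unit below the xylan mean. For the 607 genes called lower without it, the median was -2.65 in replicates 1 and 3 and -1.30 in replicate 2, and 151 of them were not below the lowest xylan library. In 55 of these genes replicate 2 was more than 1 log2 unit above the xylan mean. The libraries of the substrates did not overlap in 13.5% of tested genes with cellulose above and in 17.7% with cellulose below, and without replicate 2 in 29.4% and 33.6%. When the spread was taken from the 6 libraries alone, 1 gene was called higher (0.00997%) and 29 lower (0.289%), with 958 and 1395 genes at an unadjusted p under 0.05. The same fit without replicate 2 called 362 higher (3.61%) and 430 lower (4.29%).

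**Figure D2:**
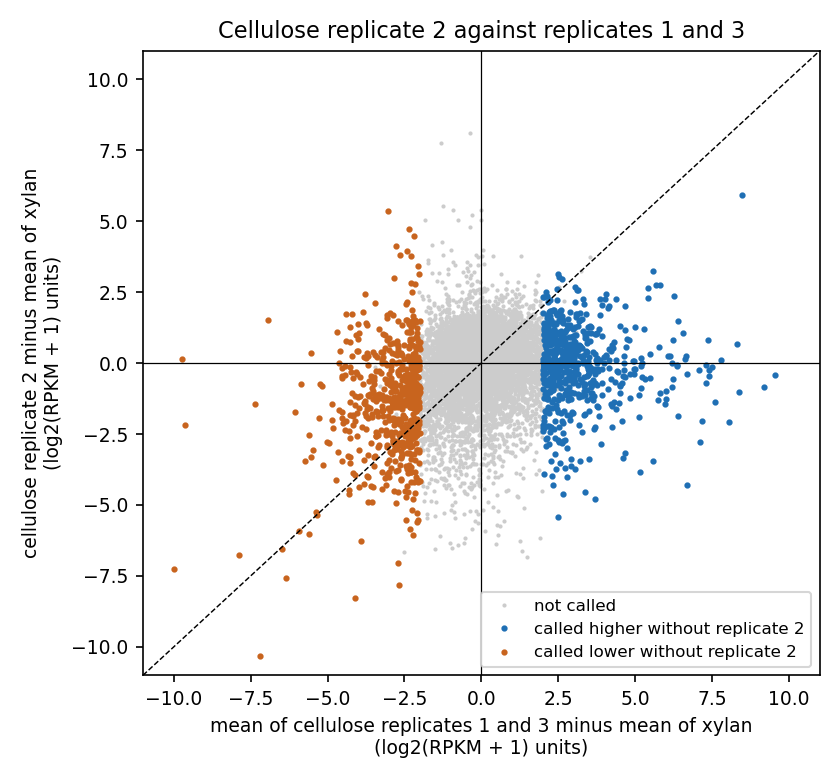
Each point is a tested gene, with the difference of the mean of cellulose replicates 1 and 3 from the xylan mean on the x axis and that of replicate 2 on the y axis, both in log2(RPKM + 1) units. Of the genes called without replicate 2, the 621 higher ones (blue) centre at -0.04 on the y axis and the 607 lower ones (orange) at -1.30. Points on the dashed line would have the same value on both axes. The coloured genes were chosen on the libraries of the x axis, so their distance from 0 on that axis was set by the choice.

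Of the 36 gene lists described, the cellulases had the largest share of genes called higher on cellulose. Of 12 genes listed 11 were tested (OPB40224 was under the filter). Among these 7 were called higher with all libraries and 8 without replicate 2, and 0 were called lower. All tested genes gave 2.83% higher and 4.82% lower, and 6.19% and 6.05% without replicate 2. Unless stated otherwise, p and standard errors use the spread shared by all 34 groups, of which 72 h cellulose had the largest median SD (0.630). With the spread of the 6 libraries alone 0 cellulases were called, and 8 were higher when replicate 2 was left out there. The median log2 difference over the list was 4.12 with all libraries and 6.06 without replicate 2, beside 0.00 and -0.03 over all tested genes. The cellobiohydrolase gene cbh1 (OPB45635) stood at 4670.1, 0.972 and 895 RPKM on cellulose and 6.81, 1.16 and 1.63 RPKM on xylan. The second cellobiohydrolase gene, cbh2 (OPB43438), stood at 2313, 0.127 and 661 RPKM on cellulose and 8.67, 1.97 and 2.66 RPKM on xylan. In both genes replicates 1 and 3 were far above every xylan library, while replicate 2 was below all xylan libraries, so the groups overlapped. The log2 difference of cbh1 was 5.83 (standard error 1.19, limma adjusted p = 4.3e-05) with all libraries and 9.17 (standard error 0.99, limma adjusted p = 2.8e-12) without replicate 2. For cbh2 these were 4.67 (limma adjusted p = 0.0005) and 8.04 (limma adjusted p = 7.3e-12). Both calls also rested on replicate 1, without which the differences were 3.57 and 2.53 and did not pass, and that of cbh2 did not pass without replicate 3 either.

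Endoglucanases and monooxygenases gave the same picture. The OPB43431 gene, annotated as endoglucanase EG-II, stood at 167.57, 0 and 30.3 RPKM on cellulose and was listed at 0 in all xylan libraries (limma adjusted p = 2.5e-05 with all libraries and 5e-11 without replicate 2). The other EG-II gene, OPB37031, stood at 192.77, 0 and 36.7 RPKM on cellulose and 0, 0.16 and 0 RPKM on xylan (log2 difference 4.21 and 6.35, limma adjusted p = 2.8e-06 and 1.7e-14). The GH12 endoglucanase OPB41394 stood at 59.8, 0 and 21.98 RPKM on cellulose and was listed at 0 on xylan (limma adjusted p = 0.00044 and 1.2e-07). All 3 genes were read in cellulose replicates 1 and 3 and listed at 0 in replicate 2. The monooxygenase gene cel61a (OPB41190) stood at 524, 0.805 and 241 RPKM on cellulose and 1.67, 0.413 and 1.09 RPKM on xylan, a log2 difference of 4.94 with all libraries and 7.48 without replicate 2 (limma adjusted p = 6.8e-06 and 2.7e-13). OPB46655, which is annotated as endoglucanase-7 and belongs with the same kind of monooxygenase, stood at 86.9, 0.199 and 49.9 RPKM on cellulose and was listed at 0 on xylan. Both monooxygenase genes were high in replicates 1 and 3 only, and replicate 2 was under 1 RPKM. The calls of OPB43431, OPB41394 and OPB46655 were lost without cellulose replicate 1.

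Other cellulases were expressed on both substrates. The membrane-bound endoglucanase CEL5b (OPB46276) stood at 446, 57.4 and 532 RPKM on cellulose and 61.7, 72.1 and 50.4 RPKM on xylan, with replicate 2 inside the xylan range. It was called higher without cellulose replicate 2 or without xylan replicate 2, in the first case at a log2 difference of 2.98 (limma adjusted p = 1.5e-16), but at 1.96 it fell short of the fold limit with all libraries. The GH12 gene OPB37643 stood at 100.81, 30.8 and 204 RPKM on cellulose and 44.5, 48.04 and 47.98 RPKM on xylan. The monooxygenase gene OPB37570 stood at 497, 73.9 and 260.4 RPKM on cellulose and 117.77, 114.81 and 115.52 RPKM on xylan. Neither was called in either fit, with log2 differences without replicate 2 of 1.60 and 1.62. The GH5 gene CEL5d (OPB36847) was near level, at 42.7, 34.6 and 77.9 RPKM on cellulose and 45.7, 49.4 and 38.9 RPKM on xylan.

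**Figure D3:**
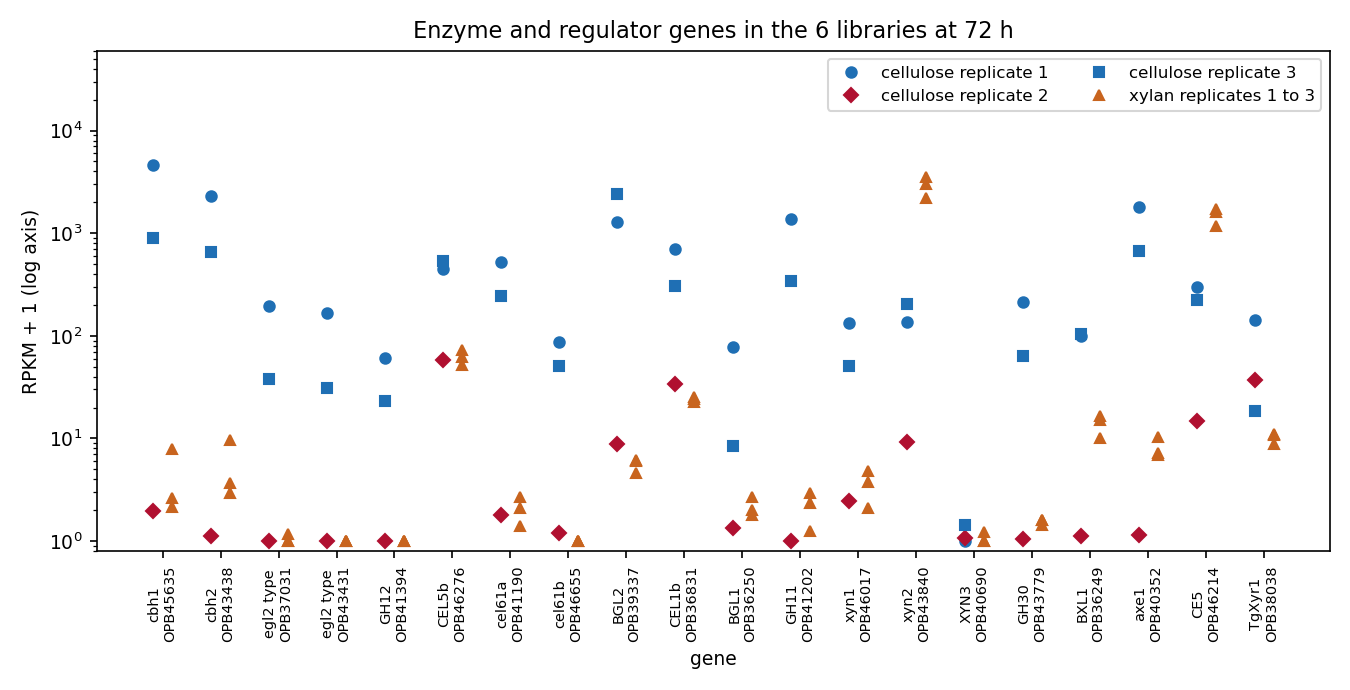
RPKM + 1 on a log axis (y) of 20 enzyme and regulator genes (x) in the 6 libraries at 72 h. For cbh1 and cbh2 cellulose replicates 1 and 3 (blue) lie far above the xylan libraries (orange triangles) and replicate 2 (red diamonds) lies below them, while xyn2 and the CE5 esterase are highest on xylan.

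The β-glucosidases rose in part. Of 11 genes tested 5 were called higher with all libraries and 6 without replicate 2. No β-glucosidase was called lower, and the list median was 1.34 and 2.04 log2 units. All tested genes gave 2.83% higher and 4.82% lower, and 6.19% and 6.05% without replicate 2. With the spread of the 6 libraries alone 0 of the 11 were called, and 4 were higher when replicate 2 was left out there. The GH1 β-glucosidase gene BGL2 (OPB39337), which encodes an enzyme of the intracellular type, stood at 1279, 7.82 and 2411 RPKM on cellulose and 5.06, 3.57 and 5.12 RPKM on xylan. Its groups did not overlap, although replicate 2 was far nearer to the xylan libraries than to the other cellulose libraries. Its log2 difference was 5.76 (standard error 0.78, limma adjusted p = 4.9e-09) with all libraries and 8.31 (limma adjusted p = 1.2e-21) without replicate 2. CEL1b (OPB36831), of the same GH1 family, stood at 699, 33.2 and 308 RPKM on cellulose and 24.1, 21.5 and 23.2 RPKM on xylan. Here too every cellulose library was above every xylan library, and the log2 difference was 3.03 with all libraries and 4.28 without replicate 2 (limma adjusted p = 1.1e-07 and 3.9e-15).

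The secreted GH3 β-glucosidase gene BGL1 (OPB36250) was lower and more variable, at 76.8, 0.327 and 7.42 RPKM on cellulose and 1.69, 1.01 and 0.792 RPKM on xylan. Its replicate 2 was below all xylan libraries, and its call with all libraries (log2 difference 2.16, limma adjusted p = 0.0039) was lost when cellulose replicate 1 or either of xylan replicates 2 and 3 was left out. The GH3 gene OPB41188 stood at 41.7, 0.0629 and 21.9 RPKM on cellulose and was listed at 0 on xylan. OPB38105, also GH3, stood at 21.6, 0.0239 and 7.27 RPKM on cellulose and 0.0802, 0.238 and 0.334 RPKM on xylan. Both were called higher with all libraries and without replicate 2, OPB38105 not without cellulose replicate 1 or 3. CEL3e (OPB40831) stood at 17.6, 9.68 and 109.40 RPKM on cellulose and 11.4, 7.98 and 11.1 RPKM on xylan, and only the fit without replicate 2 called it. The remaining 5 β-glucosidases were not called, with log2 differences without replicate 2 between -0.76 (OPB41313) and 1.47 (CEL3c, OPB41826).

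Xylan-degrading enzymes were called in both directions. Of 23 genes listed 22 were tested (OPB43347 was under the filter). With all libraries 6 were called higher and 2 lower on cellulose, and 8 higher and 1 lower were called without replicate 2. All tested genes gave 2.83% higher and 4.82% lower, and 6.19% and 6.05% without replicate 2. The lower calls of the list were thus near the background, and the higher calls were above it. With the spread of the 6 libraries alone 0 of the list were called, and 6 were higher and 2 lower when replicate 2 was left out there. The median log2 difference of the list was 0.20 and 0.55. The list summed to 4592, 256 and 1860.0 RPKM on cellulose and to 5257, 3487 and 4935 RPKM on xylan, so cellulose replicate 1 lay inside the range of the xylan libraries and replicates 2 and 3 lay below it.

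The endoxylanase gene xyn2 (OPB43840) carried most of the xylan sum. It stood at 134.32, 8.22 and 201 RPKM on cellulose and 3506, 2181 and 3048 RPKM on xylan, with every cellulose library far below every xylan library. The log2 difference was -5.50 (standard error 1.02, limma adjusted p = 8e-06) with all libraries and -4.11 (limma adjusted p = 0.00098) without replicate 2. The CE5 acetyl xylan esterase gene OPB46214 stood at 301, 13.7 and 222 RPKM on cellulose and 1595, 1175 and 1733 RPKM on xylan, again without overlap. It was called lower with all libraries (log2 difference -3.89, limma adjusted p = 0.00033) and not without replicate 2 (-2.51, limma adjusted p = 0.023).

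Other endoxylanase genes were called higher on cellulose than on xylan. The GH11 gene OPB41202 stood at 1371, 0 and 342 RPKM on cellulose and 1.32, 0.261 and 1.93 RPKM on xylan. A second GH11 gene, annotated as xyn1 (OPB46017), stood at 132.32, 1.45 and 49.6 RPKM on cellulose and 3.81, 1.12 and 2.78 RPKM on xylan. Replicates 1 and 3 were above every xylan library in both genes, while replicate 2 was at 0 in OPB41202 and inside the xylan range in OPB46017. The log2 difference of OPB41202 was 5.25 with all libraries and 8.39 without replicate 2 (limma adjusted p = 6.5e-05 and 2.1e-12), and that of OPB46017 was 2.92 and 4.605 (limma adjusted p = 0.00039 and 5e-09), both lost without cellulose replicate 1. The other gene annotated as xyn1, OPB46304, behaved differently, with 30.3, 0 and 7.8 RPKM on cellulose and 30.96, 13.8 and 27.8 RPKM on xylan. It was not called in either fit but was lower without cellulose replicate 1 (-3.01) or without xylan replicate 2. XYN3 (OPB40690), annotated as a GH10 endoxylanase, stood at 0, 0.0622 and 0.418 RPKM on cellulose and 0, 0 and 0.219 RPKM on xylan at 72 h, and at 0.233, 3.42 and 182.64 RPKM on cellulose at 24 h. It was hardly read on either substrate at 72 h, and no other gene of its family is described here.

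Genes of the GH30 endoxylanases were called higher as well. OPB43779 stood at 210.4, 0.0436 and 62.5 RPKM on cellulose and 0.588, 0.436 and 0.612 RPKM on xylan. XYN4 (OPB45639) stood at 93.9, 0 and 36.2 RPKM on cellulose and 1.01, 0 and 0.602 RPKM on xylan. Both were called higher with all libraries and without replicate 2, with log2 differences of 6.23 and 5.33 without it, and both calls were lost without cellulose replicate 1. The third GH30 gene, OPB40699, stood at 17.5, 0.136 and 7.78 RPKM on cellulose and 1.07, 0.908 and 0 RPKM on xylan and was called only without replicate 2.

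Among the enzymes that remove side groups, axe1 (OPB40352), an acetyl xylan esterase gene, stood at 1812, 0.152 and 664 RPKM on cellulose and 9.27, 5.83 and 6.17 RPKM on xylan. Replicate 2 was below all xylan libraries there. With all libraries its log2 difference of 3.81 passed (limma adjusted p = 0.0049) but lost the call when any 1 of the other 5 libraries was left out, and without replicate 2 it was 7.11 (limma adjusted p = 1.3e-09). The glucuronoyl methylesterase gene OPB43780, whose product cuts the ester that links xylan to lignin, stood at 188.30, 0.087 and 27.5 RPKM on cellulose and 1.17, 0.58 and 1.37 RPKM on xylan, and its log2 difference was 3.16 and 5.19, called in both fits but not without cellulose replicate 1 or 3 or xylan replicate 1 or 2. The other CE5 esterase gene, AXE2 (OPB42582), was highest in replicate 2, at 102.67, 178.53 and 58.97 RPKM on cellulose, 28.98, 38.7 and 30.7 RPKM on xylan and 181.50 and 177.85 RPKM under CS, and was called only without cellulose replicate 3 (2.02). The β-xylosidase gene BXL1 (OPB36249) stood at 99.3, 0.115 and 103.62 RPKM on cellulose and 15.6, 9.2 and 14.1 RPKM on xylan. It was called higher only without replicate 2 (log2 difference 2.91, limma adjusted p = 3.8e-05), and with all libraries the difference was 0.73. The arabinofuranosidases OPB38106, OPB41212 and OPB41243, the α-glucuronidases OPB39965 and OPB36320 and the β-xylosidase XYL3b (OPB40840) were not called in either fit.

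Of the accessory proteins, 13 of 15 listed genes were tested (OPB43872 and OPB46925 were not) and 2 were called higher, the same 2 in both fits. All tested genes gave 2.83% called higher, and 6.19% without replicate 2. CIP1 (OPB41189), a secreted protein known from T. reesei cultures on cellulose, stood at 411, 0.183 and 143.71 RPKM on cellulose and 0.31, 0 and 0 RPKM on xylan (log2 difference 5.24 and 7.80, limma adjusted p = 5e-06 and 6.9e-13). OPB45638, annotated as a conserved hypothetical protein, stood at 594, 0.0851 and 128.72 RPKM on cellulose and 1.73, 0.567 and 0.301 RPKM on xylan. Both genes were high in cellulose replicates 1 and 3 only, and the call of OPB45638 was lost without replicate 1. The expansin OPB44083 did not separate the substrates, at 165.33, 31.5 and 204 RPKM on cellulose and 172.11, 136.52 and 162.70 RPKM on xylan. Swollenin 2 (OPB44776) was low on both, at 7.72, 1.91 and 0.958 RPKM on cellulose and 3.42, 2.86 and 2.56 RPKM on xylan. The list median was 0.10 with all libraries and 0.07 without replicate 2.

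A few enzymes of mannan and galactose side chains were called, in both directions. Of 19 listed genes 17 were tested (OPB37715 and OPB42885 were not). With all libraries 3 were called higher and 3 lower, and 3 higher and 2 lower were called without replicate 2. All tested genes gave 2.83% higher and 4.82% lower, and 6.19% and 6.05% without replicate 2. Counts this small are not read as a result about the list. OPB42282, annotated only by its family GH5, stood at 349, 0 and 78.9 RPKM on cellulose and 0.156, 0 and 0 RPKM on xylan, a pattern like that of the cellulases (log2 difference 4.85 and 7.32, limma adjusted p = 2.6e-06 and 1.4e-14). The GH2 β-mannosidase OPB37808 stood at 108.53, 8.11 and 169.28 RPKM on cellulose and 0.572, 0.78 and 1.04 RPKM on xylan. All cellulose libraries were above all xylan libraries, replicate 2 included, and the log2 difference was 4.95 and 6.26 (limma adjusted p = 1e-15 and 5.1e-26). Another GH2 β-mannosidase, OPB44852, stood at 33.5, 0.114 and 43.3 RPKM on cellulose and 0.448, 0.762 and 0.466 RPKM on xylan and was called in both fits, though not without cellulose replicate 3.

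A further GH2 β-mannosidase, OPB43763, moved the other way, at 147.88, 46.6 and 49.2 RPKM on cellulose and 772, 645 and 745 RPKM on xylan. The groups did not overlap, and the log2 difference was -3.34 with all libraries and -3.06 without replicate 2 (limma adjusted p = 7.7e-07 and 2.2e-05). OPB38657, annotated as a GH2 β-galactosidase or β-glucuronidase, stood at 3.91, 0.74 and 0.516 RPKM on cellulose and 20.01, 19.4 and 15.4 RPKM on xylan and was also called lower in both fits. The α-galactosidase AGL1 (OPB46961) stood at 156.67, 54.3 and 55.98 RPKM on cellulose and 357, 291 and 399 RPKM on xylan. It was called lower with all libraries (-2.13) and missed the fold limit without replicate 2 (-1.87) or without replicate 3. The other 11 members were not called.

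Most genes that carry xylose into central metabolism were not called at 72 h. Of 9 tested, 0 were called higher and 1 lower with all libraries, beside 2.83% and 4.82% of all tested genes, and 1 higher and 2 lower without replicate 2, beside 6.19% and 6.05%. The xylose reductase gene xyl1 (OPB37877), the first step, stood at 551, 207 and 391 RPKM on cellulose and 231, 198.70 and 216 RPKM on xylan, a log2 difference of 0.72 and 1.11 that was not called. The xylitol dehydrogenase gene XDH1 (OPB44156), the next step, stood at 85.2, 293 and 82.003 RPKM on cellulose, with its highest value in replicate 2, and 98.6, 76.1 and 120.57 RPKM on xylan. The xylulokinase gene OPB45197 stood at 15.6, 6.75 and 17.1 RPKM on cellulose and 12.3, 9.73 and 12.8 RPKM on xylan. For these 3 steps the cellulose and xylan libraries overlapped or differed by less than the fold limit.

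Other members of the pathway did pass. The xylose dehydrogenase gene OPB42511, which oxidises xylose to xylonate, stood at 109.19, 74.2 and 71.8 RPKM on cellulose and 22.9, 19.8 and 21.2 RPKM on xylan. Every cellulose library was above every xylan library, the log2 difference was 1.93 with all libraries and 2.01 without replicate 2 (limma adjusted p = 2.5e-10 and 1e-09), and the latter passed the fold limit, as did the difference without replicate 3. The arabinitol dehydrogenase gene lad1 (OPB44279), of the arabinose pathway, stood at 31.1, 90.1 and 21.8 RPKM on cellulose and 132.32, 111.36 and 113.19 RPKM on xylan and was called lower without replicate 2 only (-2.14). Of the phosphoketolases, OPB46728 stood at 0.25, 3.43 and 0.755 RPKM on cellulose and 8.87, 8.04 and 8.12 RPKM on xylan and was called lower in both fits (-2.13 and -2.66), though not without cellulose replicate 1 or 3. The other, OPB36866, was among the strongly read genes, at 16041, 1518 and 17798 RPKM on cellulose, 14665, 15445 and 13172 RPKM on xylan and 292 and 286 RPKM under CS.

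Among the regulators described here TgXyr1 (OPB38038), the homolog of the activator Xyr1, was called. It stood at 143.09, 36.3 and 17.7 RPKM on cellulose, 7.8, 10.03 and 9.78 RPKM on xylan and 25.1 and 25.5 RPKM under CS. Every cellulose library was above every xylan library, but replicate 1 was far above replicates 2 and 3, and replicate 3 was below the CS libraries. The log2 difference was 2.20 (standard error 0.40, limma adjusted p = 5.8e-06) with all libraries and 2.35 (limma adjusted p = 7.8e-06) without replicate 2, and 1.38 without replicate 1, where it did not pass. With the spread of the 5 libraries alone it was not called (limma adjusted p = 0.12). The Zn2Cys6 gene OPB36832, listed as the homolog of the T. reesei activator ACE3, stood at 142.97, 53.4 and 82.8 RPKM on cellulose and 36.9, 36.5 and 32.6 RPKM on xylan. Its groups did not overlap either, while its log2 differences of 1.26 and 1.60 were under the fold limit. OPB38568, listed as the homolog of CLR-2, an activator of cellulase genes known from Neurospora crassa, stood at 41.2, 4.01 and 31.3 RPKM on cellulose and 9.83, 9.9 and 7.73 RPKM on xylan and was not called.

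Of 21 sugar transporters 1 was called higher and 1 lower with all libraries, and 2 and 1 without replicate 2, and of 177 genes of the MFS (major facilitator superfamily) 11 and 6, and 20 and 8. Over all tested genes the shares were 2.83% and 4.82%, and 6.19% and 6.05% without replicate 2, so these counts were near the background or, for the higher MFS genes, somewhat above it. The MFS permease gene OPB38569 stood at 5804, 63.2 and 4111 RPKM on cellulose and 173.77, 130.3 and 120.5 RPKM on xylan. It was far above xylan in replicates 1 and 3 and below the xylan libraries in replicate 2, and its log2 difference was 3.03 and 5.12 (limma adjusted p = 0.00053 and 7.9e-11), lost without cellulose replicate 1 or 3. OPB44520, annotated as a possible galactose permease, stood at 201, 16.7 and 527 RPKM on cellulose and 26.4, 27.4 and 23.03 RPKM on xylan and was called higher in both fits, though not without cellulose replicate 1 or 3 or xylan replicate 3. The hexose transporter gene OPB40913 fell, at 0, 4.05 and 1.76 RPKM on cellulose and 42.7, 19.995 and 33.7 RPKM on xylan (log2 difference -3.72 and -4.25, limma adjusted p = 6e-12 and 2.3e-13).

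Beyond the polysaccharide enzymes, a polyketide synthase gene and the gene next to it by ID were among the largest rises. The polyketide synthase gene OPB41371 stood at 214, 0.125 and 152.84 RPKM on cellulose and 0.485, 0.225 and 0.336 RPKM on xylan. The scytalone dehydratase gene OPB41372, named for an enzyme of melanin synthesis, stood at 1942, 1.27 and 956 RPKM on cellulose and 12.4, 11.996 and 3.82 RPKM on xylan. The O-methyltransferase gene OPB40672 stood at 244, 0.113 and 200.2 RPKM on cellulose and 0.191, 0.377 and 0.398 RPKM on xylan. All 3 were high in replicates 1 and 3 and at or under 1.27 RPKM in replicate 2, with log2 differences of 4.63, 4.10 and 4.85 with all libraries and 7.08, 7.17 and 7.39 without replicate 2. The call of OPB41372 was lost without cellulose replicate 1 or 3, and that of OPB40672 without replicate 1 (3.50).

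Other genes were higher in all 3 cellulose libraries than in any xylan library. This was a condition for naming the largest rises called in both fits, so it is no finding about these genes. The iron transporter gene OPB44221 stood at 563, 80.8 and 679 RPKM on cellulose and 12.8, 8.2 and 13.4 RPKM on xylan. Its neighbour by ID, OPB44222, annotated with an AraC-type helix-turn-helix, stood at 49.6, 15.8 and 51.2 RPKM on cellulose and 2.29, 1.12 and 3.18 RPKM on xylan. The ferric reductase-like gene OPB45187, of the family that reduces iron before uptake, stood at 62.7, 5.01 and 21.7 RPKM on cellulose and 0.202, 0.599 and 0.734 RPKM on xylan. Replicate 2 was the lowest cellulose library in each, and the log2 differences with all libraries were 4.69, 3.52 and 3.78 (limma adjusted p = 2.3e-14, 2.5e-16 and 1.5e-11). Under CS the iron transporter stood at 101.72 and 106.32 RPKM, above the xylan libraries as well.

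Further genes met the same condition of no overlap between the groups. The porphobilinogen deaminase-like gene OPB44052, named for a step of haem synthesis, stood at 753, 47.1 and 539 RPKM on cellulose and 21.3, 15.1 and 21.3 RPKM on xylan. The 4-aminobutyrate aminotransferase gene OPB37206 stood at 455, 69.9 and 277 RPKM on cellulose and 4.84, 9.85 and 5.65 RPKM on xylan. The Zn2Cys6 regulator gene OPB35942 stood at 261, 27.3 and 141.81 RPKM on cellulose and 3.49, 5.35 and 2.22 RPKM on xylan. Each was called in both fits, with log2 differences with all libraries of 3.75, 4.79 and 4.50. The cyanovirin-N family gene OPB46736 stood at 40.6, 3.93 and 42.97 RPKM on cellulose and was listed at 0 in every xylan library (limma adjusted p = 6.3e-09 and 9.2e-12). Among genes with no function annotated, OPB38262 stood at 537, 175.70 and 2051 RPKM on cellulose and 0, 0 and 24.1 RPKM on xylan. OPB40669 stood at 6915, 1.19 and 714 RPKM on cellulose and 1.82, 1.8 and 2.27 RPKM on xylan, with replicate 2 below xylan. Of the 621 genes called higher without replicate 2, 265 had no function annotated, and of the 607 lower genes 327.

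The 29 genes called lower with the spread of the 6 libraries alone were all called lower in both other fits, and 14 of them had an annotated function. That fit favours genes whose cellulose libraries, replicate 2 included, lie close together and far from xylan. Such closeness and separation in the genes below are therefore no findings about them. The mitochondrial fumarate hydratase gene OPB36008, an enzyme of the TCA cycle, stood at 319, 284 and 307 RPKM on cellulose, 3985, 3739 and 2998 RPKM on xylan and 263 and 269 RPKM under CS. The cellulose libraries lay close together and near the CS libraries, far below xylan, and the log2 difference was -3.55 with all libraries and -3.50 without replicate 2 (limma adjusted p = 2.7e-28 and 8.1e-26, and 0.0093 with the spread of the 6 libraries). The gene OPB45116, annotated as a protein of the SWI-SNF chromatin-remodelling complex, stood at 243, 172.98 and 178.45 RPKM on cellulose and 2606, 2897 and 2808 RPKM on xylan. The secretion-related small GTPase gene OPB38195 stood at 91.2, 94.4 and 56.8 RPKM on cellulose and 991, 1052 and 1025 RPKM on xylan. OPB45116 and OPB38195 were named after their values were seen, being among the 29.

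Transporters and secreted proteins were among the same 29. OPB37524, whose partly garbled annotation reads as a carboxylic acid transporter, stood at 0.105, 1.45 and 0.128 RPKM on cellulose and 313, 257 and 229.6 RPKM on xylan, a log2 difference of -7.51 with all libraries and -7.89 without replicate 2 (limma adjusted p = 3.5e-31 and 3e-30). The monocarboxylate transporter gene OPB38575, named after its values were seen, stood at 14.5, 13.1 and 16.2 RPKM on cellulose and 95.3, 82.4 and 75.98 RPKM on xylan. OPB47173, annotated as a phosphatidylserine decarboxylase, was listed at 0 in all cellulose libraries and stood at 48.1, 49.2 and 87.9 RPKM on xylan (limma adjusted p = 2.9e-25). These 3 genes were separate by far between the substrates in every library, which the choice from the 29 favoured. The small secreted cysteine-rich protein gene OPB42940 stood at 2.53, 2.6 and 5.65 RPKM on cellulose and 312, 196.42 and 206 RPKM on xylan. The GH13 glucosidase gene OPB37044 stood at 31.2, 17.1 and 15.2 RPKM on cellulose and 297, 287 and 292 RPKM on xylan. In both, replicate 2 lay within or near the range of the other cellulose libraries, which the same choice favoured. The 1 gene called higher by the same fit was OPB47075, with no function annotated, at 148.21, 106.77 and 174.49 RPKM on cellulose and 17.3, 16.03 and 18.3 RPKM on xylan.

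Central carbon enzymes fell on cellulose in part. The phosphoenolpyruvate carboxykinase gene OPB36548, the entry to gluconeogenesis, stood at 661, 2116 and 278 RPKM on cellulose, 23973, 25613 and 19616 RPKM on xylan and 1382 and 1408 RPKM under CS. The xylan libraries were the highest by far, and the log2 difference was -4.97 with all libraries and -5.74 without replicate 2 (limma adjusted p = 5.3e-13 and 4.8e-15). The succinate dehydrogenase gene OPB41448, for an enzyme of the same cycle as fumarase, stood at 409, 336 and 513 RPKM on cellulose and 2081, 2180.4 and 1693 RPKM on xylan. A second one, OPB39015, stood at 196.23, 157.98 and 246 RPKM on cellulose and 918, 946 and 791 RPKM on xylan. Of the 20 TCA and glyoxylate cycle genes 0 were called higher and 3 lower with all libraries, beside 2.83% and 4.82% of all tested genes. Without replicate 2 the counts were 1 and 3, beside 6.19% and 6.05%. The list medians were -0.995 with all libraries and -0.79 without replicate 2. With libraries scaled to equal RPKM sums 3 of the 20 were higher and 1 lower, and 2 and 1 without replicate 2.

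In glycolysis and gluconeogenesis, of 19 genes 0 were called higher and 3 lower with all libraries, beside 2.83% and 4.82% of all tested genes. Without replicate 2 the counts were 2 and 2, beside 6.19% and 6.05%. The list median turned from -0.77 to 0.26 when replicate 2 was left out. The fructose-bisphosphate aldolase gene OPB40445 was lower in both fits, at 609.9, 397 and 1537 RPKM on cellulose and 4564, 4529.5 and 3820.4 RPKM on xylan. The glucokinase gene OPB41622, whose product phosphorylates glucose, stood at 1508, 101.16 and 2347 RPKM on cellulose and 217, 222 and 205 RPKM on xylan. The phosphoglycerate mutase gene OPB36681, of lower glycolysis, stood at 2240.1, 25.1 and 2837 RPKM on cellulose and 582, 501 and 444 RPKM on xylan. Those 2 genes were higher in replicates 1 and 3, below xylan in replicate 2 and called only without it. The trehalose-6-phosphate synthase gene OPB47034 was lower in every cellulose library, at 307, 264 and 309.7 RPKM against 2087, 2414 and 2164 RPKM on xylan (log2 difference -2.92, limma adjusted p = 9e-16).

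Several genes were high on xylan and under CS and lowest in cellulose replicates 1 and 3. The small secreted cysteine-rich protein gene OPB44820 stood at 1.45, 531 and 2.87 RPKM on cellulose, 2779, 2136 and 2425 RPKM on xylan and 2724 and 2628 RPKM under CS. The hydrophobin gene HFB4 (OPB37525), for a small surface-active wall protein, stood at 114.51, 998 and 125.82 RPKM on cellulose, 5595, 5253 and 6775 RPKM on xylan and 4830.1 and 4238 RPKM under CS. The GH76 gene OPB41755, annotated as a mannanase, stood at 1.43, 943 and 2.03 RPKM on cellulose, 323, 337 and 336 RPKM on xylan and 529 and 519.8 RPKM under CS. In OPB44820 and HFB4 replicate 2 was between the other cellulose libraries and xylan, and in OPB41755 it was above all xylan libraries. Their log2 differences were -7.15, -4.58 and -4.13 with all libraries and -9.63, -5.59 and -6.94 without replicate 2, and all 3 were called lower in both fits.

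Some chitinases, which cut the chitin of fungal walls, were called lower on cellulose. Of 22 tested, 0 were called higher and 5 lower with all libraries, and 0 and 6 without replicate 2, with medians of -0.42 and -0.85 log2 units. Over all tested genes the shares were 2.83% and 4.82%, and 6.19% and 6.05% without replicate 2, so 0 called higher was near the background. The chitinase median with all libraries turned to 0.09, with 1 gene called lower, when libraries were scaled to equal RPKM sums, and was -0.62 with 5 called lower when replicate 2 was left out as well. The endochitinase gene OPB43505, annotated as chit42, stood at 0.781, 98.5 and 0.476 RPKM on cellulose, 26.3, 34.01 and 27.7 RPKM on xylan and 309 and 309.8 RPKM under CS. CHI18-15 (OPB37700), of family GH18, stood at 4.52, 59.6 and 0.427 RPKM on cellulose, 46.3, 49.4 and 38.4 RPKM on xylan and 242 and 225 RPKM under CS. The gene OPB40749 stood at 4.48, 75.002 and 0 RPKM on cellulose, 35.5, 36.4 and 35.7 RPKM on xylan and 225 and 205 RPKM under CS. In all 3 replicate 2 was above the xylan libraries and below the CS libraries, and replicates 1 and 3 were below every xylan library. Their log2 differences were -2.24, -2.54 and -2.30 with all libraries and -4.22, -4.02 and -3.98 without replicate 2. The calls with all libraries were lost without cellulose replicate 3 in each, and for OPB43505 also without cellulose replicate 1 or xylan replicate 2. In the GH18 gene OPB35984 every cellulose library was below xylan, at 1.47, 7.62 and 1.19 RPKM against 17.2, 16.98 and 22.3 RPKM.

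The following lists had calls in both directions, to be read beside 2.83% of all tested genes called higher and 4.82% lower with all libraries, and 6.19% and 6.05% without replicate 2. Of 51 wall and other β-glucan hydrolases 4 were called higher and 6 lower with all libraries, and 12 and 5 without replicate 2. Of 83 small secreted cysteine-rich proteins and hydrophobins the counts were 5 and 7, and 15 and 7. In both lists the share called higher without replicate 2 was above that of all genes. Of 140 proteases and peptidases they were 4 and 9, and 11 and 15, the serine protease gene OPB37315 being lower in every cellulose library, at 3.21, 18.6 and 3.77 RPKM against 134.86, 129.38 and 146.82 RPKM on xylan. Of 59 transporters of amino acids, peptides and nitrogen they were 4 and 2, and 10 and 4, and here too the share called higher without replicate 2 was above that of all genes. Of 224 Zn2Cys6 and 48 C2H2 regulators 4 and 1 were called higher and 6 and 2 lower with all libraries, and 9 and 1 higher and 13 and 6 lower without replicate 2. For the proteases and the C2H2 regulators the share called lower without replicate 2 was above that of all genes. Among the Zn2Cys6 genes called lower, OPB38831 had the largest difference, at 9.32, 30.4 and 20.5 RPKM on cellulose and 339.9, 238 and 342 RPKM on xylan.

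The cytosolic ribosomal proteins gave almost no call, and some ribosome biogenesis factors were called lower. Of 85 cytosolic ribosomal protein genes 0 were called in either direction with all libraries, and 0 higher and 1 lower without replicate 2, with medians of -0.01 and 0.54. Of 57 ribosome biogenesis factors 0 were higher and 4 lower, and 0 and 7 without replicate 2, with medians of -0.92 and -1.29. Over all tested genes 2.83% were called higher and 4.82% lower, and 6.19% and 6.05% without replicate 2. All cellulose libraries were below xylan in 27 of the 57 factors, and in 42 without replicate 2, beside 17.7% and 33.6% of all tested genes. The pre-rRNA processing gene RRP9 (OPB40176) stood at 6.24, 11.3 and 2.59 RPKM on cellulose and 47.7, 49.9 and 24.9 RPKM on xylan, without overlap. When each library was scaled to the same RPKM sum, the median of all tested genes was 0.54, or 0.12 without replicate 2, and 658 genes were called higher and 191 lower, or 801 and 390 without replicate 2. The share of higher among all calls was then 77.5%, or 67.3% without replicate 2, against 37.03% and 50.6% in the deposited scale. Relative to the median of all genes in that scaling, the cellulases were at 3.48 and 5.78, the chitinases at -0.45 and -0.74, the ribosome biogenesis factors at -0.73 and -1.05 and the TCA and glyoxylate enzymes at -0.78 and -0.56. Of the ribosome biogenesis factors 0 were then called lower with all libraries and 3 without replicate 2.

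**Figure D4:**
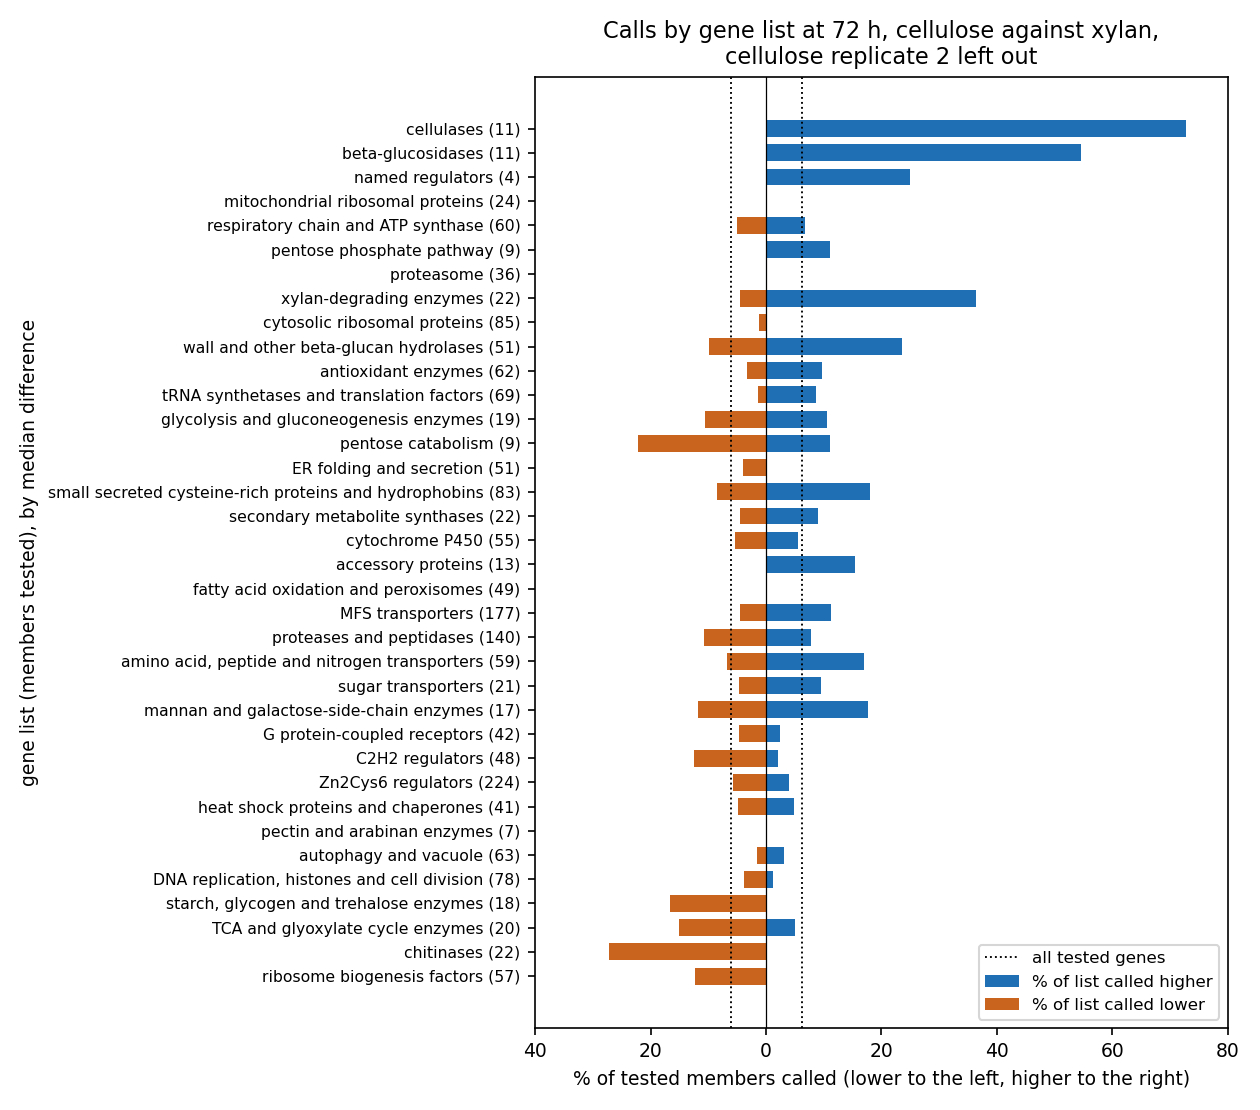
Share of the tested members of each gene list (y axis, number tested in brackets) called higher (blue, to the right) or lower (orange, to the left) on cellulose without replicate 2, in % (x axis). The dotted lines mark the shares over all tested genes, 6.19% higher and 6.05% lower. The cellulases reach furthest to the right, with 8 of 11 called higher, and the chitinases furthest to the left, with 6 of 22 called lower.

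The difference between the substrates was then compared with that at 24 h, as an interaction term of the same model. With all libraries 1062 genes had a higher cellulose-xylan difference at 72 h than at 24 h (10.6%) and 1050 a lower one (10.5%), and without cellulose replicate 2 the counts were 1479 (14.8%) and 1412 (14.1%). Of the 621 genes called higher at 72 h without replicate 2, 25 were called higher at 24 h as well. These were 4.03% of the 72 h calls and 5.35% of the 467 calls at 24 h. Another 221 (35.6%) were called lower there. Of the 607 lower genes 28 were lower at 24 h too (4.61%, and 3.59% of the 780 at 24 h), and 117 (19.3%) were higher. All tested genes gave 4.66% called higher and 7.78% called lower at 24 h. Calls in the same direction were not above these shares, and calls in the opposite direction were. The 2 times share no library.

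Cellulase genes differed between the cellulose replicates at 24 h too, with list sums of 505, 637 and 5390 RPKM on cellulose and 1069 to 1144 RPKM on xylan. The cbh1 gene (OPB45635) stood at 7.003, 118.71 and 2695 RPKM on cellulose and 16.8, 7.94 and 9.03 RPKM on xylan at 24 h, with replicate 3 far above the others and replicate 1 below all xylan libraries. Its interaction was 2.28 with all libraries, not called, and 5.62 without replicate 2 at 72 h (limma adjusted p = 0.00019), called. Of the 11 cellulases 2 were called higher in the interaction with all libraries, CEL5b and OPB37643, and 7 without replicate 2, beside 10.6% and 14.8% of all tested genes. CEL5b (OPB46276) stood at 130.5, 122.70 and 130.5 RPKM on cellulose and 342, 451 and 375 RPKM on xylan at 24 h, where xylan was the higher, and its interaction was 3.55 (limma adjusted p = 2e-09).

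Of the 9 pentose genes 0 were called higher and 4 lower on cellulose at 24 h, and of the 22 xylan-degrading enzymes 3 and 5, beside 4.66% and 7.78% of all tested genes. In the interaction 4 pentose genes were higher and 1 lower, or 5 and 1 without replicate 2, and 5 xylan-degrading enzymes were higher and 1 lower, or 7 and 0. Over all tested genes the shares in the interaction were 10.6% and 10.5%, or 14.8% and 14.1% without replicate 2. The xyl1 gene (OPB37877) stood at 137.69, 140.5 and 498 RPKM on cellulose and 2493, 2530.3 and 2291 RPKM on xylan at 24 h, where every xylan library was far above every cellulose library. The interaction was 4.23 (standard error 0.42, limma adjusted p = 2.4e-13) and 4.62 without replicate 2. BXL1 (OPB36249) stood at 0.212, 1.74 and 75.6 RPKM on cellulose and 115.37, 49.1 and 111.76 RPKM on xylan at 24 h, with cellulose replicate 3 inside the xylan range. The xyn1 gene (OPB46017) stood at 0.43, 0.386 and 1.51 RPKM on cellulose and 8.75, 6.43 and 18.8 RPKM on xylan at 24 h. Their interactions were 4.51 and 5.64 (limma adjusted p = 0.00022 and 1.5e-06), and neither call was lost when any 1 of the 12 libraries was left out.

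Chitinases differed in the other direction. The endochitinase gene OPB43505 stood at 199.06, 219 and 206 RPKM on cellulose and 1.02, 0.408 and 0.283 RPKM on xylan at 24 h, where all cellulose libraries were far above xylan, the reverse of replicates 1 and 3 at 72 h. Its interaction was -9.32 with all libraries and -11.30 without replicate 2 (limma adjusted p = 5.7e-14 and 1.7e-25). Of 22 chitinases 0 were higher and 11 lower in the interaction, beside 10.6% and 10.5% of all tested genes. Without replicate 2 the counts were 0 and 12, beside 14.8% and 14.1%. The phosphoenolpyruvate carboxykinase gene OPB36548 likewise stood at 7795, 8212 and 5177 RPKM on cellulose and 1643, 1246 and 1840.4 RPKM on xylan at 24 h, and its interaction was -7.12.

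The ribosomal protein genes, with almost no call at 72 h, differed in the interaction. Of 85 genes 52 were higher and 3 lower with all libraries, beside 10.6% and 10.5% of all tested genes. Without replicate 2 the counts were 59 and 4, beside 14.8% and 14.1%. They summed to 12532, 11465 and 11806 RPKM on cellulose and 53404, 73084 and 60483 RPKM on xylan at 24 h, and to 22014, 9051 and 27101 RPKM and 21843, 15993 and 16966 RPKM at 72 h. Xylan was the higher at 24 h, and at 72 h the libraries overlapped through replicate 2 alone, since the sums of replicates 1 and 3 were above all xylan sums. Of the 85 genes 6 had all cellulose libraries above xylan at 72 h, and 50 without replicate 2, beside 13.5% and 29.4% of all tested genes. With equal RPKM sums the interaction was called higher in 45 of them and lower in 3, and in 45 and 5 without replicate 2. The ribosome biogenesis factors were lower in the interaction in 22 of 57 genes and higher in 0, with 30 and 0 without replicate 2. The polyketide synthase gene OPB41371, low on cellulose at 24 h (0.247, 0.182 and 1.17 RPKM against 16.6, 11.1 and 23.2 RPKM on xylan), had an interaction of 8.18.

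**Figure D5:**
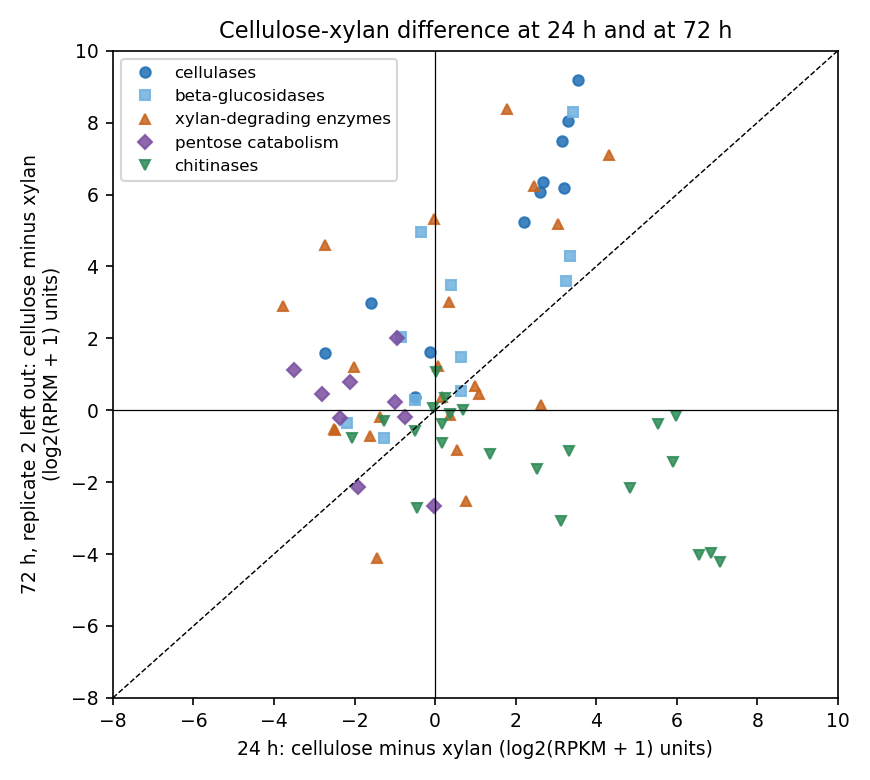
Log2 difference of cellulose against xylan at 24 h (x axis) and at 72 h without cellulose replicate 2 (y axis), in log2(RPKM + 1) units, for the genes of 5 lists. The dashed line marks equal differences. All cellulases (dark blue circles) lie above it, cbh1 (OPB45635) at 3.55 and 9.17, the pentose gene xyl1 (OPB37877, purple diamond) lies at -3.51 and 1.11, and chitinases such as OPB43505 (green triangles) lie at the lower right, at 7.09 and -4.22.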

How the data were processed

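RNA of WT mycelium was sequenced by the authors as polyA libraries on an Illumina platform with paired reads, which were cleaned with the FASTX-Toolkit, aligned with TopHat2 and quantified with Cufflinks and Cuffnorm. The deposited values are RPKM per gene (the methods also call them FPKM). Tool versions and the scaling option of Cuffnorm are not given in the sources used here. RPKM are no counts, so the depth of each library is unknown and no counting interval was computed.

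Groups came from the sample labels, and libraries of a group were treated as biological replicates, as the methods state. Values were analysed as log2(RPKM + 1), so fold changes of low genes are understated. Genes above 1 RPKM in at least 2 libraries were tested with limma 3.58.1 (trend, R 4.3.3), with 1 mean for each of 34 groups over 100 libraries, so that the spread is shared by all groups. The interaction was the 72 h difference minus the 24 h difference, called at the same limits. The fit, that on the compared libraries alone, the equal-sum scaling and the interaction were repeated without cellulose replicate 2, and the code was tested on simulated data. Tables and plots were made with Python 3.11.15, numpy 2.4.6, pandas 2.3.3 and matplotlib 3.10.9.

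The genes and lists were chosen with earlier results of these data known. The named genes were the members of the enzyme, pentose and regulator lists, up to 15 largest rises and 15 largest falls with an annotated function and no overlap between the groups (called in both fits, or without replicate 2), up to 4 called members of each list, and up to 3 genes of no annotated function in each direction. Lists were made from words and IDs in the deposited annotation, and some share members. Alternatives covered left-out libraries, the spread of the compared libraries alone, a replicate block, the pseudocount, the filter, median-ratio scaling, array weights, unadjusted p-values and, added after seeing the data, scaling to equal RPKM sums. Some genes are not reported here.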

Additional observations from a re-analysis of the deposited data

Results flagged for a closer look

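The difference between cellulose and xylan was larger or smaller at 72 h than at 24 h in many genes, by the test of the difference itself (interaction term, limma, Benjamini-Hochberg adjusted). The counts were 1062 genes with a higher and 1050 with a lower difference at 72 h. Among the enzyme and regulator genes with a higher difference at 72 h, the log2 interactions of the xylan genes were 5.64 for xyn1 (OPB46017), 4.51 for BXL1 (OPB36249), 3.39 for XYN4 (OPB45639), 2.24 for XYL3b (OPB40840) and 2.03 for the arabinofuranosidase OPB41212. Those of the cellulose genes were 3.55 for CEL5b (OPB46276), 3.61 for OPB37643, 3.68 for the GH3 gene OPB41188 and 2.20 for CEL3e (OPB40831). For the expansin-like gene OPB42114 the value was 3.45. The mannan and galactose genes gave 5.27 for OPB44852, 2.40 for OPB37808 and 2.13 for the β-galactosidase BGA1 (OPB41632). The pentose genes gave 4.23 for xyl1 (OPB37877), 2.88 for the xylulokinase OPB45197, 2.87 for OPB42511 and 2.75 for XDH1 (OPB44156).

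A lower difference at 72 h was found in the β-mannosidase OPB43763 (-4.86), the CE5 esterase OPB46214 (-4.67), OPB38657 (-2.68) and the phosphoketolase OPB46728 (-2.10). The value of OPB41188 rests on xylan libraries at 0 and depends on the pseudocount. Without cellulose replicate 2 at 72 h all of these were called as well, except OPB41212 and OPB46214. Other single libraries also ended calls. XYN4 (OPB45639) lost its call without any 1 of 5 libraries, cellulose replicates 1 and 3 and xylan replicate 2 of 72 h and cellulose replicates 1 and 2 of 24 h, down to 2.06. OPB41212 lost it without any 1 of 6 libraries, cellulose replicate 2 and xylan replicate 2 of 72 h and cellulose replicates 2 and 3 and xylan replicates 1 and 3 of 24 h, down to 1.58. Without cellulose replicate 1 or 3 of 72 h the calls of OPB37808 (down to 1.59), XYL3b (OPB40840, down to 1.61) and OPB46728 (up to -1.71) were lost. OPB37808 also lost it without cellulose replicate 1 of 24 h, XYL3b without xylan replicate 3 of 24 h and OPB46728 without cellulose replicate 2 of 24 h. OPB41188 lost its call without cellulose replicate 1 (2.64) and CEL3e (OPB40831) without replicate 3 of 72 h (1.21). BGA1 (OPB41632) lost it without xylan replicate 1 or 3 of 24 h (1.95), and OPB46214 without cellulose replicate 3 of 24 h (-2.56). The other calls named here held without any 1 of the 12 libraries.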

How the results depend on the processing

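The count of genes called higher on cellulose was the least stable value. Leaving out 1 library at a time gave 157 to 621 higher and 471 to 607 lower genes, the lowest higher count (157) without cellulose replicate 3 and the highest (621) without replicate 2, and 202 without replicate 1. With the spread of the 6 libraries alone 1 was higher and 29 lower. Array weights, whose fit did not fully converge, called 568 higher. They gave cellulose replicate 2 almost no weight and replicate 3 a weight of 0.127, beside 2.15 for replicate 1. The cellulose level in that fit thus rested mostly on replicate 1. Equal RPKM sums called 658 higher and 191 lower, and with replicate 2 left out as well 801 higher. The interaction calls ranged from 769 to 1479 higher and 816 to 1412 lower over left-out libraries, and 1954 were lower with equal sums and without replicate 2. The cause of these shifts was not tested. A pseudocount of 0.1 gave 407 higher genes and of 2 gave 215.

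Deviations of same-numbered cellulose and xylan libraries from their group means had correlations of 0.084, 0.004 and -0.104. Replicate 2 dominates the deviations of the cellulose group, so these values cannot decide whether the replicate numbers pair the libraries. The replicate block gave 288 higher and 483 lower genes, and 1068 and 1055 in the interaction. Median-ratio scaling, no filter and unadjusted p kept all 206 named differences on their side of the threshold, as did the block. Equal sums kept 177, the 5 libraries alone without replicate 2 kept 159, and the 6 libraries alone kept 94, with 112 calls lost. No named difference that was called reversed its direction. Without read counts, the precision of genes near 0 is unknown.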

Other observations

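Genes of other functions were high in cellulose replicates 1 and 3 and low in replicate 2 and on xylan. The ammonium permease gene MEA1 (OPB42100), for uptake of nitrogen, stood at 20.4, 0.779 and 36.3 RPKM on cellulose and 0.75, 1.11 and 1.3 RPKM on xylan at 72 h. The amino acid permease gene OPB39085 stood at 919, 2.54 and 827 RPKM on cellulose and 30.9, 41.5 and 33.6 RPKM on xylan, and was called without replicate 2 only. The histidine acid phytase gene OPB41695, which releases phosphate from phytate, stood at 109.97, 0.934 and 236 RPKM on cellulose and 0.582, 0.806 and 0.484 RPKM on xylan. At 24 h these 3 genes were called lower on cellulose than on xylan (limma adjusted p = 1.3e-05, 0.00015 and 4.7e-06), with means of 15.4, 220.2 and 16.2 RPKM on xylan against 0.712, 18.3 and 0.59 RPKM on cellulose. The mitochondrial peroxiredoxin gene PRX1 (OPB44636), which removes peroxides, stood at 842, 102.72 and 1955 RPKM on cellulose and 98.04, 64.7 and 136.68 RPKM on xylan. With all libraries the call of MEA1 was lost without cellulose replicate 1 or 3 (1.60) and that of PRX1 without replicate 3 (1.62).

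In the other direction, the gene annotated as Ku80 (OPB39422), a protein that binds broken DNA ends, stood at 67.1, 31.6 and 82.5 RPKM on cellulose, 1004, 914 and 1010.2 RPKM on xylan and 21.3 and 19.04 RPKM under CS, a log2 difference of -4.10 (limma adjusted p = 2.4e-22). The alcohol oxidase gene AOX1 (OPB41235) stood at 22.2, 368 and 0.649 RPKM on cellulose and 1193, 847 and 998 RPKM on xylan. The metal ion transporter gene SMF2 (OPB36350) stood at 19.7, 524 and 10.1 RPKM on cellulose and 912, 960.0 and 770.0 RPKM on xylan. In both the groups did not overlap, which was a condition for naming the largest falls called in both fits, and replicate 2 was the nearest to xylan. The gene OPB37924, with no function annotated, had the largest fall that was called in both fits, at 15.7, 68.04 and 5.23 RPKM on cellulose, 11210.0, 9303 and 11009 RPKM on xylan and 76.9 and 72.8 RPKM under CS. It was high in the xylan libraries of 72 h and at means of 10.7 and 37.99 RPKM on cellulose and xylan at 24 h.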
